A study of Mus musculus with 14 samples.

Results

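The glycoprotein Ib-IX-V complex is the receptor by which megakaryocytes and platelets bind von Willebrand factor. Gp1ba encodes its ligand-binding chain, Gp1bb the chain that is disulphide-linked to it, Gp9 the small subunit needed to bring the complex to the cell surface, and Gp5 the subunit that joins it last and carries a thrombin cleavage site. Vwf encodes the multimeric ligand, which endothelial cells and megakaryocytes make and store, and Thbs1 encodes thrombospondin 1, an adhesive glycoprotein of platelet alpha granules that monocytes, macrophages and fibroblasts make as well. Pf4 and Ppbp are neighbouring genes for CXC chemokines held in alpha granules, and Gp6 encodes the platelet collagen receptor. These 9 platelet and megakaryocyte genes were chosen by name, with earlier results of these data known. Their probes were found through the transcript accession that the array design gives each probe. Of the 9 genes, 8 had a probe, 11 probes in all of the 41174 non-control probes on the array; no probe matched Gp6, which was not analysed here. Each of the 8 genes was read well above background on all 14 arrays, so none had to pass the filter on dim probes through a single fraction, and they stand among 32463 genes tested, of which 16461 have a symbol.

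The arrays measured total RNA from FDCPmix, a mouse bone marrow line of multipotent blood progenitors that depends on interleukin 3, and all samples were grown under the same maintenance conditions with interleukin 3 conditioned medium and horse serum. Cells were stained and sorted by surface antigens into Kit-Gr1- cells (3 arrays), Gr1+ cells (3 arrays), Kit+Gr1-Sca1hi cells (3 arrays) and Kit+Gr1-Sca1lo cells (3 arrays), and 2 arrays held unfractionated cells. Kit is the stem cell factor receptor, the Gr1 antibody binds Ly6 proteins of granulocytes and monocytes, and Sca1 is the Ly6a protein of early progenitors. Replicates are biological according to the series design, all from this 1 line, and their number limits the precision.

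Values are log2 processed Cy3 signals from which the array's own 75th percentile was subtracted, so 1 unit is 2-fold and 0 is the level that 25% of the probes exceed. The level of 1 probe says nothing about that of another, so genes are compared below by how they differed between fractions. Kit+Gr1- stands for the mean of the Sca1hi and Sca1lo groups. The words rose and fell are kept for genes for which limma's moderated test gave a Benjamini-Hochberg adjusted p under 0.05 over all genes and a difference of at least 2-fold. Of the arrays, 4 had a compressed signal range, with an interquartile range of 1.78 to 3.42 log2 units against 4.17 to 4.92 on the others: Gr1+ replicate 3, Sca1hi replicate 3, Sca1lo replicate 3 and unfractionated replicate 1. The arrays lay on 4 slides, of which 3 held Kit-Gr1-, Gr1+ and at least 1 Kit+Gr1- array. Differences within those slides are given beside many, not all, of the fitted ones. Slide 1 held both Kit+Gr1- gates, slide 2 held Sca1lo alone and slide 3 held Sca1hi alone. As these are bulk samples, fewer cells of a type and less RNA per cell cannot be told apart.

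The receptor subunits Gp1ba, Gp5 and Gp9, together with Pf4, measured more on each Kit-Gr1- array than on any other sorted array, while Vwf, Thbs1 and Ppbp had their highest mean in the Gr1+ fraction. The 250 bases before the annotated starts of Gp1ba, Gp5, Gp9 and Pf4 are shown because these genes moved together across the fractions, with that of Ppbp, the neighbour of Pf4, which followed Vwf and Thbs1. Sequences are RefSeq's, in build GRCm38.p6, 5′ to 3′ on the strand of the gene. They cover chr11:70638872-70639121 on the plus strand for Gp1ba, chr16:30310782-30311031 on the minus strand for Gp5, chr6:87777820-87778069 on the plus strand for Gp9, chr5:90772185-90772434 on the plus strand for Pf4 and chr5:90768268-90768517 on the plus strand for Ppbp. Capitals mark words searched on both strands. Of those that GATA factors can bind, one read AGATAA, another read TGATAA, the next read AGATAG and the last read TGATAG. Those that ETS factors can bind read either AGGAAG or else CGGAAG. No 2 of the marked words overlap.
Gp1ba: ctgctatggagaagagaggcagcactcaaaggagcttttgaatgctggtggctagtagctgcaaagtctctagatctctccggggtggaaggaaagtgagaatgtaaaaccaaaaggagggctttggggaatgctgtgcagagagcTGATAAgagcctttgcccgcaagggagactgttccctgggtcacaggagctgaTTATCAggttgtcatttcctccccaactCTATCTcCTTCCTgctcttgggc
Gp5: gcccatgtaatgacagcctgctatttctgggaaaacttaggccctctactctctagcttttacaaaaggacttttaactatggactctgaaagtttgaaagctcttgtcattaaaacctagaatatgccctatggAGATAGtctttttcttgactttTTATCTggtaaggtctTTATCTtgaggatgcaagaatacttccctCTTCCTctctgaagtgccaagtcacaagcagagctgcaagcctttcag
Gp9: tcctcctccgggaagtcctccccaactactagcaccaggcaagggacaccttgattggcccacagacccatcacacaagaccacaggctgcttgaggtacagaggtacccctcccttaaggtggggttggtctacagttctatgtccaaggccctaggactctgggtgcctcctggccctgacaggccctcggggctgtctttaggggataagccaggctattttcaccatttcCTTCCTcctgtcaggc
Pf4: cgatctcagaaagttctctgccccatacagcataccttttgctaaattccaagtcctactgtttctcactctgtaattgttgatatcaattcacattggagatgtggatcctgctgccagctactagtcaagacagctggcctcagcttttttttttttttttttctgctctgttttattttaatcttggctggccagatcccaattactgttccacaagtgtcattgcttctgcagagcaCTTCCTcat
Ppbp: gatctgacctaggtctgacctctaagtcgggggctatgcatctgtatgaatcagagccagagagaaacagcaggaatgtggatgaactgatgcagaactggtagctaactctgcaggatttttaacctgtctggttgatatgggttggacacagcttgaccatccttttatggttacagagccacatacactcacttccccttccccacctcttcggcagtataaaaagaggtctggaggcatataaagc

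Gp1ba held 3 GATA words, beginning at positions -104, -51 and -23 from the start, and Gp5 held 3, at -115, -93 and -77. Each of the 2 genes also had 1 ETS word. Gp9 had an ETS word and no GATA word, Pf4 had an ETS word, and Ppbp had neither. Of the 7 members with a promoter entry, 4 held a GATA word (Gp1ba, Gp5, Gp1bb and Gp6), 5 an ETS word (Gp1ba, Gp5, Gp9, Gp1bb and Pf4) and 1, Gp9, a RUNX word (TGTGGT or its variant TGCGGT), which is not marked above. Over 32841 RefSeq promoters of the same length, 26.5% held a GATA word, 6.40% held 2 or more, 39.2% held an ETS word and 18.6% a RUNX word. The matches describe letters in a window and do not show that a factor is bound there.

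Gp1ba, the ligand-binding receptor chain, measured 1.79, 1.53 and 2.25 on the Kit-Gr1- arrays, against -0.54, 0.07 and -0.59 in Kit+Gr1-Sca1hi cells and 0.01, 0.34 and 0.10 in Kit+Gr1-Sca1lo cells. On the Gr1+ arrays it measured -1.99, -1.81 and -1.63. The fractions fell into 3 levels with no overlap between them, Kit-Gr1- at the top and Gr1+ at the bottom, and the Sca1hi and Sca1lo arrays overlapped in the middle. Gp1ba rose in the Kit-Gr1- fraction over Kit+Gr1- cells by 1.96 ± 0.25 (log2 difference ± SE, 3.89-fold, adjusted p = 0.0072), with 2.05, 1.19 and 2.18 within slides 1 to 3. It was the 1 member of 8 called in this comparison, where 0.0678% of all genes (22 of 32463) were called and 0.0554% were called higher. This call ended without Kit-Gr1- replicate 1 (adjusted p = 0.0900) and without Kit-Gr1- replicate 3 (adjusted p = 0.106), with no gene of the whole array called in either case by limma although 439 and 401 had an unadjusted p under 0.05. It also ended against Sca1lo cells alone (adjusted p = 0.145), with quantile normalization (1.84, adjusted p = 0.115), after scaling to array medians (2.28, adjusted p = 0.496) and with the unscaled deposited values (1.73, adjusted p = 0.957).

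In the Gr1+ fraction Gp1ba fell by 1.71 ± 0.25 on the log2 scale relative to Kit+Gr1- cells (a log2 difference of -1.71, 3.26-fold lower, adjusted p = 0.00349), with -1.73, -2.15 and -1.69 within the slides. Between the Kit-Gr1- and Gr1+ fractions the difference was 3.66 ± 0.29 (12.7-fold, adjusted p = 0.000161), with 3.78, 3.34 and 3.87 within slides. Of the alternatives run, array-median scaling (adjusted p = 0.348) and the unscaled deposited values (adjusted p = 0.0936) ended the call against Kit+Gr1- cells. None of the alternatives run ended the call between the Kit-Gr1- and Gr1+ fractions.

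**Figure D1:**
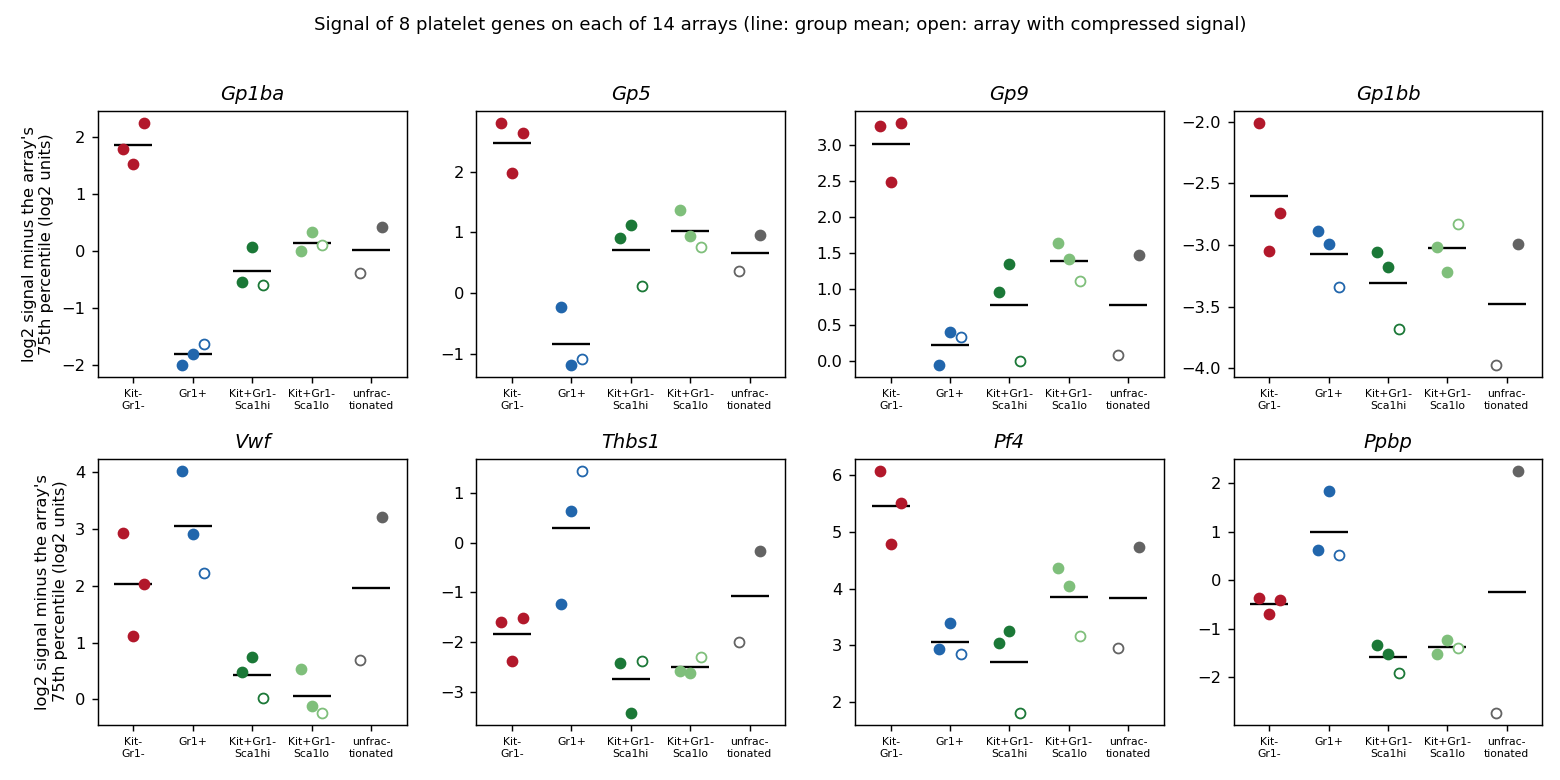
Log2 signal minus the array's 75th percentile (vertical axes, log2 units, a scale per gene) for 8 platelet genes on each of 14 arrays, by fraction. Points are arrays, lines are group means and open points are the 4 arrays with compressed signal. Gp1ba, Gp5, Gp9 and Pf4 are highest on the 3 Kit-Gr1- arrays, and Ppbp is at 2.26 on unfractionated replicate 2 and at -2.73 on replicate 1.

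Gp5, the subunit that thrombin cuts, had the same order. It measured 2.80, 1.98 and 2.64 on the Kit-Gr1- arrays and -0.23, -1.18 and -1.09 on the Gr1+ arrays. In Kit+Gr1- cells the values were 0.90, 1.12 and 0.11 for Sca1hi and 1.38, 0.94 and 0.76 for Sca1lo. All Kit-Gr1- arrays lay above, and all Gr1+ arrays below, the 6 Kit+Gr1- arrays. In the Gr1+ fraction Gp5 fell by 1.70 ± 0.31 relative to Kit+Gr1- cells (a log2 difference of -1.70, 3.25-fold lower, adjusted p = 0.0110), with -1.37, -2.12 and -2.20 within slides. That call was lost without Gr1+ replicate 2 (adjusted p = 0.126), without Gr1+ replicate 3 (adjusted p = 0.0672), against Sca1hi cells alone (adjusted p = 0.0675), after array-median scaling (adjusted p = 0.514) and with the unscaled deposited values (adjusted p = 0.0629). Over Kit+Gr1- cells the Kit-Gr1- difference was 1.61 ± 0.31 (3.05-fold), with 1.66, 1.04 and 1.53 within slides, and did not pass (adjusted p = 0.142). Between Kit-Gr1- and Gr1+ cells it was 3.31 ± 0.36 (9.90-fold, adjusted p = 0.000713), with 3.03, 3.16 and 3.73 within slides.

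Gp9, the small subunit, measured 3.26, 2.48 and 3.30 on the Kit-Gr1- arrays, against 0.96, 1.35 and 0.00 on the Sca1hi arrays and 1.64, 1.42 and 1.12 on the Sca1lo arrays. The Kit-Gr1- arrays stood above all others, with a difference of 1.93 ± 0.35 from Kit+Gr1- cells (3.81-fold, adjusted p = 0.107). Within slides that difference was 1.96, 1.06 and 1.95. The Gr1+ arrays measured -0.05, 0.40 and 0.34, and 1 Sca1hi array, replicate 3 at 0.00, lay among them. The Gr1+ difference from Kit+Gr1- cells was -0.85 ± 0.35 (adjusted p = 0.448), and it passed without the 4 compressed arrays (-1.17, adjusted p = 0.0139), where 6.88% of all genes were called. The Kit-Gr1- fraction exceeded the Gr1+ fraction by 2.79 ± 0.41 (6.90-fold, adjusted p = 0.00359), with 3.31, 2.08 and 2.97 within slides, and this call was lost with array-median scaling alone (adjusted p = 0.145).

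Gp1bb, the chain linked to Gp1ba, did not share the pattern. It measured -2.01, -3.05 and -2.74 on the Kit-Gr1- arrays and -2.88, -2.99 and -3.34 on the Gr1+ arrays. In Kit+Gr1- cells it ranged from -3.68 to -2.83, so all 3 fractions overlapped. The Kit-Gr1- difference from Kit+Gr1- cells was 0.56 ± 0.36 (95% confidence interval -0.22 to 1.35), with 1.03, 0.17 and 0.44 within slides 1 to 3. That of the Gr1+ fraction was 0.09 ± 0.36 (interval -0.69 to 0.88), with 0.15, 0.23 and -0.16 within slides. The Gp1bb gene overlaps Septin5, a septin gene expressed in platelets and neurons, in the RefSeq annotation, so signal of the Gp1bb probe is uncertain as to its transcript. Septin5, on a probe of its own, measured -0.38, 0.95 and 0.51 in Gr1+ cells against -2.38 to -0.67 over the 6 Kit+Gr1- arrays. It rose in the Gr1+ fraction by 2.12 ± 0.39 (4.34-fold, adjusted p = 0.0121), and its Kit-Gr1- difference was -0.20 ± 0.39. A dimmer Septin5 probe gave 1.76 ± 1.26 in Gr1+ and -0.87 ± 1.26 in Kit-Gr1- cells.

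Vwf, the ligand, measured 4.03, 2.92 and 2.23 on the Gr1+ arrays and 2.94, 1.11 and 2.03 on the Kit-Gr1- arrays. In Kit+Gr1- cells it measured 0.49, 0.74 and 0.03 (Sca1hi) and 0.53, -0.11 and -0.23 (Sca1lo). Both fractions outside the Kit+Gr1- gate lay above all 6 Kit+Gr1- arrays, and they overlapped with each other. In Gr1+ cells Vwf rose by 2.82 ± 0.55 (7.04-fold, adjusted p = 0.0159), with 3.52, 3.03 and 1.49 within slides. The call was lost without Gr1+ replicate 1 (2.33, adjusted p = 0.109), without Gr1+ replicate 2 (2.89, adjusted p = 0.103), against Sca1hi cells alone (adjusted p = 0.0777) and after array-median scaling (adjusted p = 0.246). The Kit-Gr1- difference was 1.78 ± 0.55 (3.45-fold) with an adjusted p of 0.906, and 2.43, 1.23 and 1.28 within slides. A second Vwf probe gave 2.74 in Gr1+ cells and 1.57 in Kit-Gr1- cells.

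Thbs1 measured -1.22, 0.65 and 1.46 on the Gr1+ arrays, against -2.42, -3.42 and -2.38 in Sca1hi cells and -2.59, -2.62 and -2.29 in Sca1lo cells. In Kit-Gr1- cells it measured -1.60, -2.39 and -1.51, and the array at -2.39 lay among the Kit+Gr1- values. The Gr1+ arrays were above all other sorted arrays but varied more than the rest, with an SD of 1.38 (n = 3). Thbs1 rose in the Gr1+ fraction by 2.92 ± 0.54 (7.55-fold, adjusted p = 0.0124), with 1.28, 3.28 and 4.88 within slides. The call was lost without Gr1+ replicate 2 (adjusted p = 0.125), without Gr1+ replicate 3 (2.34, adjusted p = 0.0760), with quantile normalization (adjusted p = 0.0847), with array-median scaling (adjusted p = 0.0726) and with the unscaled deposited values (adjusted p = 0.110). The Kit-Gr1- difference was 0.79 ± 0.54 (adjusted p = 0.906). Its 3 probes differed in size, from 2.92 to 4.29 in Gr1+ cells and from 0.45 to 1.66 in Kit-Gr1- cells.

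Pf4, although secreted, had the order of the receptor subunits in the Kit-Gr1- fraction. It measured 6.08, 4.78 and 5.51 there, against 3.04, 3.25 and 1.81 in Sca1hi cells and 4.37, 4.04 and 3.16 in Sca1lo cells. All Kit-Gr1- arrays were above the rest of the sorted arrays. The difference of 2.18 ± 0.48 (4.53-fold) had an adjusted p of 0.317 in the fit of all 14 arrays and of 0.0213 in the fit of the 12 sorted arrays. Within slides 1 to 3 it was 2.38, 0.74 and 2.26. In Gr1+ cells Pf4 measured 2.93, 3.40 and 2.84, within the Kit+Gr1- range, with a difference of -0.22 ± 0.48 and an interval of -1.26 to 0.82. Within slides 1 to 3 this difference was -0.78, -0.65 and -0.40. The difference between Kit-Gr1- and Gr1+ cells was 2.40 ± 0.56 (5.28-fold), with an adjusted p of 0.0513 over 14 arrays, 0.00388 over the 12 sorted arrays, where 4.1% of all genes were called, and 0.0359 without Sca1hi replicate 3.

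Ppbp, the chemokine gene beside Pf4, had instead the order of Vwf and Thbs1. It measured 0.62, 1.86 and 0.53 on the Gr1+ arrays and -0.36, -0.69 and -0.40 on the Kit-Gr1- arrays. The 6 Kit+Gr1- arrays ranged from -1.90 to -1.22, below both, and the Gr1+ arrays did not overlap the Kit-Gr1- arrays. The Gr1+ difference from Kit+Gr1- cells was 2.49 ± 0.75 (5.60-fold, adjusted p = 0.155), with 2.05, 3.08 and 2.05 within slides. Over the 12 sorted arrays alone, where 4.33% of all genes were called, its adjusted p was 8.79e-05. The pair of unfractionated arrays, at -2.73 and 2.26, adds to the spread that the fit of all 14 arrays shares between groups. The Kit-Gr1- difference was 1.00 ± 0.75 over Kit+Gr1- cells and -1.49 ± 0.86 against Gr1+ cells (adjusted p = 0.946, and 0.0123 over the 12 sorted arrays).

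**Figure D2:**
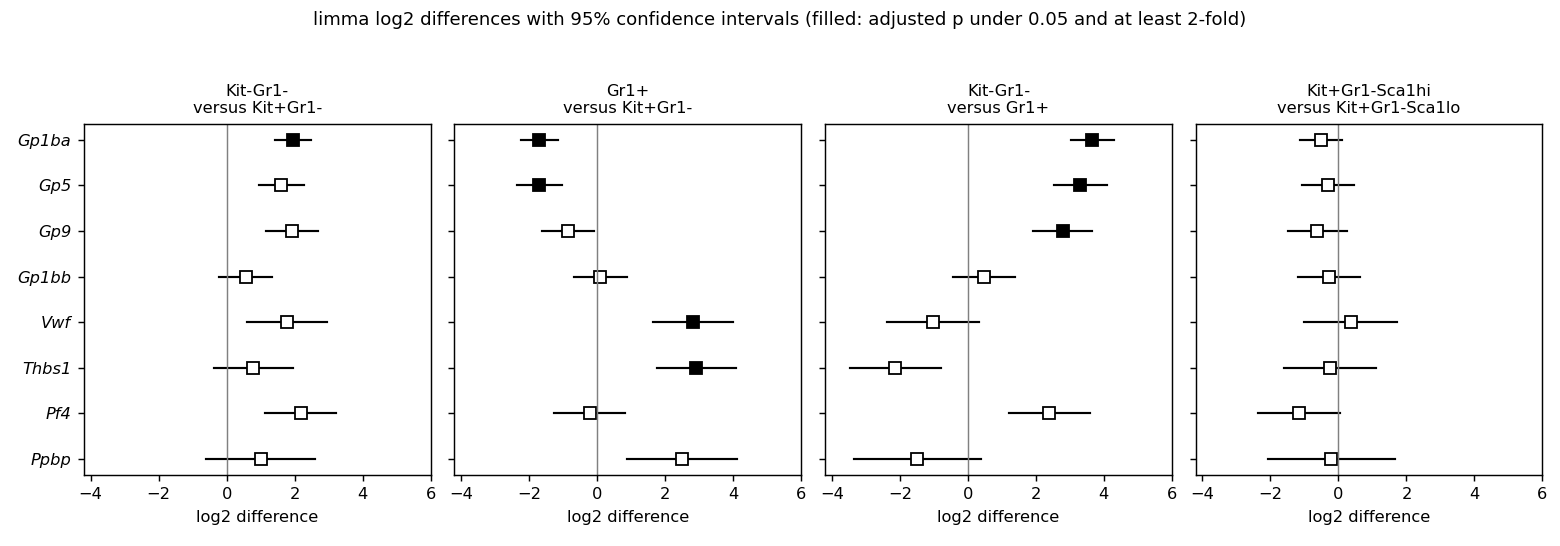
Log2 differences of 8 platelet genes in 4 comparisons (horizontal axes, log2 units), the first-named fraction over the second, with 95% confidence intervals from limma. Filled squares passed at an adjusted p under 0.05 and at least 2-fold: 1 gene in the first panel, 4 in the second, 3 in the third and 0 in the fourth.

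Counted over the 8 genes, the Kit-Gr1- against Kit+Gr1- comparison called 1 higher and 0 lower, and 6 genes (Gp1ba, Gp5, Gp9, Vwf, Pf4 and Ppbp) had all Kit-Gr1- arrays above all Kit+Gr1- arrays, as did 3.31% of all genes. The median difference of the 8 was 1.70, against -0.25 over all genes, and after array-median scaling it was 2.02, against 0.07. The 8 genes were chosen with earlier results of these data known. The shares and medians of all genes, here and below, are therefore given as description and are no test of them. With the 12 sorted arrays alone, Gp5, Gp9 and Pf4 passed as well (adjusted p = 0.0277, 0.00924 and 0.0213), where 0.346% of all genes were called. Leaving out unfractionated replicate 1 or replicate 2 is no separate check of this. The 1 array then left in that group adds nothing to the estimate of the spread, as in the fit of the 12 sorted arrays.

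In Gr1+ against Kit+Gr1- cells, 2 genes rose (Vwf and Thbs1), 2 fell (Gp1ba and Gp5) and 4 did not pass, where 1.38% of all genes rose and 0.625% fell. The 3 genes Vwf, Thbs1 and Ppbp had all Gr1+ arrays above and 2 (Gp1ba and Gp5) all Gr1+ arrays below the Kit+Gr1- arrays, as did 5.88% and 3.83% of all genes. The median of the 8 was -0.06 and that of all genes -0.04. Of all calls in this comparison 68.8% were higher, and over the alternatives that share ran from 54.7% without the compressed arrays to 85.6% after array-median scaling. In Kit-Gr1- against Kit+Gr1- cells the share was 81.8%, with 92.3% after quantile normalization, 71.8% without the compressed arrays, 370 of 740 calls with array weights and up to 93.3% with 1 array left out.

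Between the Kit-Gr1- and Gr1+ fractions, Gp1ba, Gp5 and Gp9 were higher and none was called lower, where 0.564% and 1.03% of all genes were called higher and lower (1.59% in all). Gp1ba, Gp5, Gp9 and Pf4 did not overlap upwards, nor Thbs1 and Ppbp downwards, which 13.2% and 14% of all genes did. The Thbs1 difference of -2.13 ± 0.63 (adjusted p = 0.164) passed over the 12 sorted arrays (adjusted p = 0.0379) and without Gr1+ replicate 1 (-2.89, adjusted p = 0.0253). The first 3 comparisons share arrays, so their calls are not independent of each other.

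Within the Kit+Gr1- gate, none of the 8 genes differed between Sca1hi and Sca1lo cells by the test. The differences ran from -1.16 ± 0.56 for Pf4 (interval -2.36 to 0.04, adjusted p = 1.00) to 0.36 ± 0.63 for Vwf. Gp1ba measured -0.51 ± 0.29 and Gp9 -0.62 ± 0.41. No gene of the whole array (0%) was called by limma in this comparison, 55 had an unadjusted p under 0.05, and 9 were called with array weights. For Pf4 the 2 slides that held both gates gave -1.33 and -1.35.

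To set the receptor against the secreted proteins on each array, every gene was expressed as its log2 difference from the Kit+Gr1- mean, and the 4 receptor subunits and the 3 genes Vwf, Thbs1 and Pf4 were averaged. On the Kit-Gr1- arrays both averages were raised alike, with receptor values of 1.79, 1.07 and 1.69 and secreted values of 2.17, 0.87 and 1.71. The receptor average minus the secreted average was -0.39, 0.20 and -0.01 there, within the -0.23 to 0.28 of the Kit+Gr1- arrays apart from replicate 1. On the Gr1+ arrays the averages parted: the receptor subunits were at -0.96, -1.06 and -1.10 and the secreted genes at 1.61, 2.02 and 1.88. The difference there was -2.57, -3.09 and -2.98, outside the range of every other sorted array. Its mean was -2.88 ± 0.27 in Gr1+ cells and -0.07 ± 0.29 in Kit-Gr1- cells (SD, n = 3 each). Over the Gr1+ arrays Vwf and Thbs1 each varied more than this difference, with SDs of 0.91 and 1.38. Gp1ba minus Vwf alone had an SD of 1.09 there. These averages describe genes chosen with earlier results in view and carry no test.

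Pf4 did not move with the other secreted genes, and a grouping made after the values were seen sets it apart. This grouping also leaves out Gp1bb, whose difference in Gr1+ cells was 0.09. The mean of Vwf and Thbs1 was 2.59, 2.97 and 3.03 above the Kit+Gr1- mean on the Gr1+ arrays, where the mean of Gp1ba, Gp5 and Gp9 was -1.37, -1.48 and -1.41 and Pf4 was -0.35, 0.12 and -0.43. On the Kit-Gr1- arrays the same 3 measures were 1.86, 0.55 and 1.45 for Vwf and Thbs1, 2.00, 1.38 and 2.11 for Gp1ba, Gp5 and Gp9, and 2.80, 1.50 and 2.23 for Pf4. On the Gr1+ arrays the mean of Vwf and Thbs1 and that of Gp1ba, Gp5 and Gp9 lay on opposite sides of the Kit+Gr1- level. On the Kit-Gr1- arrays both means lay above that level. Vwf and Thbs1 ran in opposite order over Gr1+ replicates 1 to 3, at 4.03, 2.92 and 2.23 and at -1.22, 0.65 and 1.46. Their mean (SD 0.24) therefore varied less than either gene (SDs 0.91 and 1.38).

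**Figure D3:**
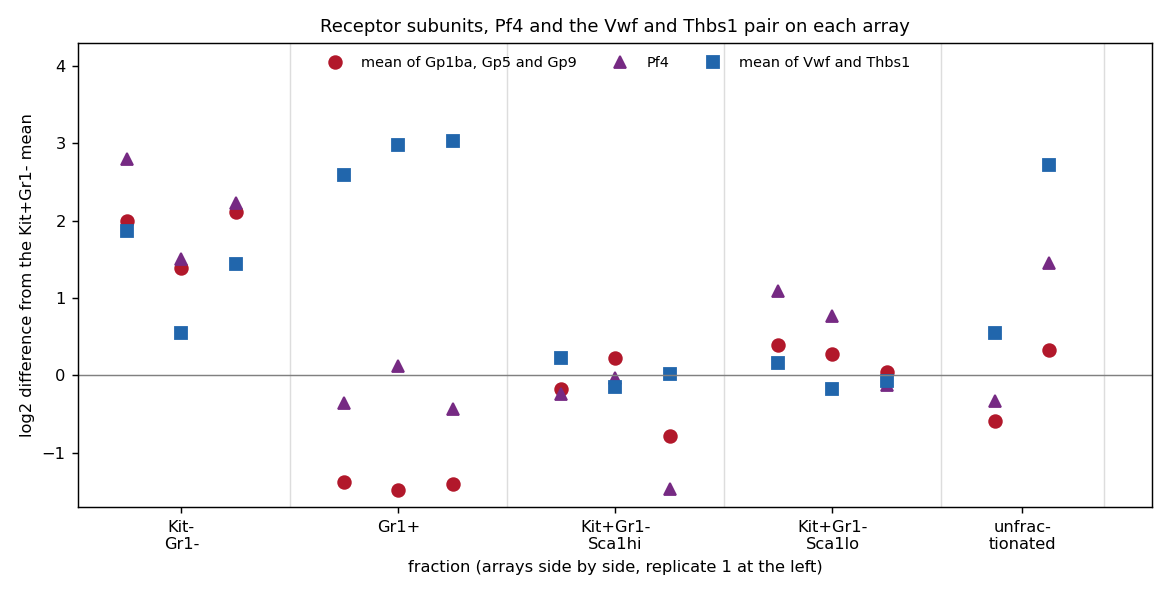
Log2 difference from the Kit+Gr1- mean (vertical axis, log2 units) on each of 14 arrays, by fraction. Circles are the mean of Gp1ba, Gp5 and Gp9, triangles are Pf4 and squares are the mean of Vwf and Thbs1; on the Gr1+ arrays the squares lie at 2.59 to 3.03 and the circles at -1.48 to -1.37.

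Over the 12 arrays of sorted fractions, Gp1ba had a Pearson r of 0.949 with Gp5 and 0.945 with Gp9, and Pf4 had 0.940 with Gp9, 0.801 with Gp1ba and 0.242 with Vwf. Thbs1 and Ppbp had an r of 0.850, Vwf and Ppbp 0.838, and Vwf and Thbs1 0.629. Gp1bb reached 0.781 with Pf4, 0.668 with Gp9, 0.577 with Gp5 and 0.484 with Gp1ba. Pf4 and Ppbp, though adjacent in the genome, had an r of 0.076. The arrays fall into fractions and share 4 slides, so these coefficients mainly describe differences between fractions and are given without a test. Without the compressed arrays (9 arrays), the r of Gp1ba and Gp5 was 0.951, that of Pf4 and Gp9 0.938 and that of Thbs1 and Ppbp 0.959.

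**Figure D4:**
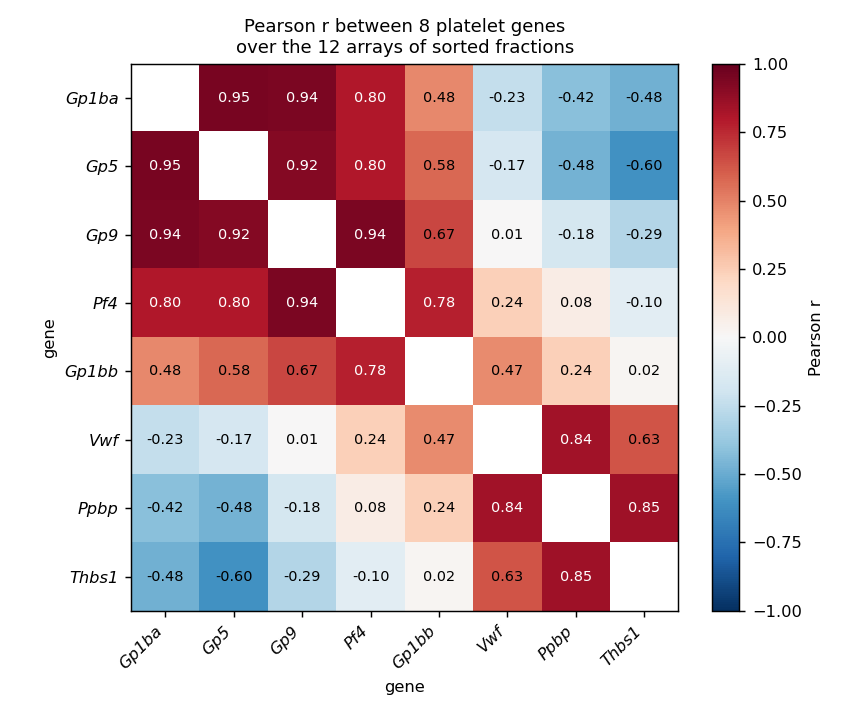
Pearson r (colour scale and numbers) between 8 platelet genes, named on both axes, over the 12 arrays of sorted fractions. Gp1ba, Gp5, Gp9 and Pf4 form a block of high values, and Vwf, Ppbp and Thbs1 form another.

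The genes most like each member over those 12 arrays were also listed. Closest to Gp1ba were Gypc (r = 0.983), which encodes the red cell membrane protein glycophorin C, Myo10 (0.981), Kifc3 (0.969), Septin8 (0.965) and Kel (0.963), which carries the Kell blood group antigen. Kifc3 (0.986), Nipa1 (0.985), Septin8 (0.981), Odf3b (0.981) and Zfpm1 (0.980), the GATA1 partner FOG1, were closest to Gp5. Bmp2k (0.988), Rmdn3 (0.980) and Smim5 (0.976) led the list for Gp9, and Gtf2a2 (0.984), Asb1 (0.973) and Nme3 (0.971) that for Pf4. Slc7a7 (0.954) was closest to Thbs1, Atg2a (0.922) to Vwf and Tmem131l (0.912) to Gp1bb. For Ppbp the closest were Pip5k1b (0.972), Abcc5 (0.971), Naip2 (0.965) and Itgb2 (0.965), the leukocyte integrin beta 2 chain.

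Of 21 regulators of megakaryocytes tested, Gata1 alone rose in Kit-Gr1- over Kit+Gr1- cells, where 0.0554% of all genes rose, and the list's median was 0.32 against -0.25 over all genes. Gata1, a transcription factor of red cells and megakaryocytes, measured 2.53, 2.06 and 2.49 on the Kit-Gr1- arrays, against -0.43, -0.04 and -0.06 in Sca1hi cells and 0.75, 0.79 and 0.67 in Sca1lo cells, a difference of 2.08 ± 0.22 (4.23-fold, adjusted p = 0.00370). In Gr1+ cells Zfpm1 alone fell (-2.28 ± 0.44, 4.84-fold lower, adjusted p = 0.0157), with a list median of -0.02. Zfpm1 (3.58), Gfi1b (2.21), a repressor of erythroid and megakaryocyte cells, and Gata1 (2.03) were called higher in Kit-Gr1- than in Gr1+ cells. Klf1, the erythroid factor, had differences of 3.03 ± 0.77 in Kit-Gr1- over Kit+Gr1- cells (adjusted p = 0.516) and of 3.90 ± 0.89 over Gr1+ cells (adjusted p = 0.0476). Within slides 1 to 3 the difference from Kit+Gr1- cells was 3.91, 2.57 and 4.71. Klf1 measured 0.71 on Sca1hi replicate 3, a compressed array, against -3.49 and -3.53 on Sca1hi replicates 1 and 2.

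Other platelet genes were counted in the same way, against the shares of all genes given above. Their lists, like that of the regulators, were chosen with earlier results of these data known, so the shares are no test of them. Of 22 integrins and surface receptors, 0 were called in Kit-Gr1- over Kit+Gr1- cells, where 0.0678% of all genes were called, with a median of 0.23. Clec1b, the receptor for podoplanin, had a difference of 2.48 ± 0.66 (adjusted p = 0.619) and Slamf1 one of 1.73 ± 0.42 (adjusted p = 0.447) there. In Gr1+ cells Cd226 rose (2.01 ± 0.40, adjusted p = 0.0171) and Tbxa2r, the thromboxane receptor, fell (-1.58 ± 0.27, adjusted p = 0.00838), with 20 not passing. Slamf1 (3.11) and Pear1 (1.62) were called higher in Kit-Gr1- than in Gr1+ cells. Of 21 genes listed for platelet granule cargo and granule formation, 0 were called in Kit-Gr1- over Kit+Gr1- cells, with a median of -0.07. Slc6a4, the serotonin transporter, had a difference of 2.56 ± 0.60 there (adjusted p = 0.375). Its difference was 2.27 ± 0.60 in Gr1+ over Kit+Gr1- cells (adjusted p = 0.0883) and 0.30 ± 0.69 in Kit-Gr1- over Gr1+ cells (adjusted p = 0.948). Sparc alone fell in Gr1+ cells (-1.87 ± 0.43, adjusted p = 0.0405), and none of the list was called between the Kit-Gr1- and Gr1+ fractions.

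Of 20 genes of platelet cytoskeleton and signalling, Mrvi1 alone rose in Kit-Gr1- over Kit+Gr1- cells (2.73 ± 0.32, 6.64-fold, adjusted p = 0.00424), with a list median of 0.59. Mrvi1 encodes a partner of the inositol trisphosphate receptor that acts in platelet inhibition by cyclic GMP. In Gr1+ cells Rab38 fell (-1.23 ± 0.24, adjusted p = 0.0178). Mrvi1 (4.04) and Rab38 (1.64) were called higher in Kit-Gr1- than in Gr1+ cells. No gene of the 4 lists was called between Sca1hi and Sca1lo cells.

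Markers of other cells moved with these genes, and their part in the results was not tested. In Kit-Gr1- over Kit+Gr1- cells, 4 of 10 erythroid markers rose, among them Aqp1 (4.73 ± 0.48) and the globin gene Hba-a1 (3.90 ± 0.44). Of 9 mast cell and basophil markers 0 were called there, with a median difference of 1.13 against -0.25 over all genes, and Mcpt8, a basophil protease, differed by 2.53 ± 0.88 (adjusted p = 0.906). The mean of that list was 1.79 to 2.89 on the Kit-Gr1- arrays and 2.38 to 3.50 on the Gr1+ arrays, against 0.79 to 1.75 for Sca1hi and 0.87 to 1.79 for Sca1lo. The mean level of the erythroid list was 0.31 to 0.80 on the Kit-Gr1- arrays and -2.71 to -1.40 on the Gr1+ arrays, against -2.37 to -0.62 for Sca1hi and -1.53 to -1.12 for Sca1lo. Of 9 megakaryocyte markers tested, which include Gp9 and Pf4, 0 were called over Kit+Gr1- cells and Gp9 alone was called over Gr1+ cells. The list's mean level was 2.51 to 2.99 in Kit-Gr1- and 1.48 to 1.72 in Gr1+ cells, against 1.40 to 2.19 in Sca1hi and 2.00 to 2.27 in Sca1lo cells. Every megakaryocyte marker tested was above background on every array, but so were all 7 stromal markers. In each group 8 or 9 of 10 endothelial markers were above background on every array of the group. As 79.5% to 99.5% of all probes carried this flag, it does not set the megakaryocyte markers apart. Itga2b (integrin alpha IIb) measured 4.59 ± 0.24 in Kit-Gr1- and 3.24 ± 0.46 in Gr1+ cells, against 4.04 ± 0.56 in Sca1hi and 3.92 ± 0.12 in Sca1lo cells (SD, n = 3 each).

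In Gr1+ over Kit+Gr1- cells, 7 of 11 neutrophil markers, 5 of 7 eosinophil markers, 6 of 9 monocyte and macrophage markers and 1 of 9 mast cell and basophil markers rose. The mean of the neutrophil list was 4.77 to 6.30 on the Gr1+ arrays, against -2.38 to 0.59 over the Kit+Gr1- arrays, and it was -3.29 to 0.56 in Kit-Gr1- cells. That of the monocyte and macrophage list, cells that also make thrombospondin 1, was -0.07 to 0.73 on the Gr1+ arrays and -2.00 to -1.33 on the Kit-Gr1- arrays, against -2.60 to -1.20 over the Kit+Gr1- arrays. Of this list Adgre1, a macrophage surface receptor, rose by 4.50 ± 0.85 and the chemokine receptor gene Ccr2 by 4.39 ± 0.86. Of 10 markers of endothelial cells, which make von Willebrand factor in the body, 0 rose and 1, Eng, fell in Gr1+ cells (-1.49 ± 0.28, adjusted p = 0.0133). The mean of that list was -2.35 to -1.63 on the Gr1+ arrays, against -2.27 to -0.96 over the Kit+Gr1- arrays. Of 7 stromal markers 0 were called in any comparison.

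Unfractionated cells are described without a test, since the 2 arrays had an r of 0.509 with each other over all genes. Gp1ba measured -0.39 and 0.42, Gp5 0.36 and 0.96, and Gp9 0.09 and 1.47 on replicates 1 and 2. Vwf measured 0.70 and 3.21, Thbs1 -2.00 and -0.16, and Pf4 2.95 and 4.73. Replicate 1 had the narrowest signal range of all arrays. On replicate 2 Vwf and Thbs1 lay within the range of the Gr1+ arrays, and Gp1ba, Gp5 and Gp9 lay above it.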

How the data were processed

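RNA of 14 FDCPmix samples was hybridised with Cy3 to single-colour Agilent mouse arrays. The deposited intensity values are processed signals, background-subtracted and detrended by Agilent Feature Extraction 10.1.1.1, per the file headers; the headers name build mm8. The deposited series table holds log2 values that equal the log2 processed signals, unscaled. Here control and outlier spots were left out, spots of a probe averaged on the log2 scale, and each array's 75th percentile subtracted. Probes well above background on at least 3 arrays were kept, with 1 probe per gene, that of the highest mean. The Feature Extraction flag put 79.5% to 99.5% of probes well above background. Accessions were named through RefSeq's table (GRCm38.p6): 23374 of 41174 probes had a symbol and 17800 had none.

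A fit by limma 3.58.1 (R 4.3.3) with a trended prior took all 14 arrays in 5 groups with no covariate. Tests are two-sided, adjusted by Benjamini-Hochberg over 32463 genes. The script was checked on simulated data. By the deviations from group means, same-numbered Gr1+, Sca1hi and Sca1lo arrays had r from 0.621 to 0.867, above the 0.1 taken as pairing. This pairing comes from the data, not the labels, and differently numbered arrays of those groups had r from -0.857 to 0.662. Among replicates 1 and 2, differently numbered arrays had r from 0.308 to 0.662, which is also above 0.1. Replicate 3 of each is a compressed array, so pairing by number and this shared compression cannot be told apart. Alternatives were array-median and quantile scaling, normexp with an offset of 50 on median and background signals (the mean signal was not used here), no dim-probe filter, the deposited log2 values, means over probes, slide or replicate number as a block, the 12 sorted arrays, no compressed arrays, array weights, each Kit+Gr1- gate alone and each array left out. Named genes are the 8 members, Septin5, Gata1 and Klf1, up to 4 called genes (or 2 not called) of each platelet list, up to 2 of each marker list, and the 5 genes closest to each member by r; a few genes these rules cover are not reported here. Members and lists were chosen with earlier results of these data known.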

Additional observations from a re-analysis of the deposited data

Results flagged for a closer look

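Ppbp measured 2.26 on unfractionated replicate 2, an array that enters no comparison. That is above all 12 arrays of sorted fractions, of which the highest was Gr1+ replicate 2 at 1.86, and unfractionated replicate 1 measured -2.73, below all of them.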

How the results depend on the processing

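For the 8 genes in 4 comparisons, 832 values were recomputed under the alternatives: 754 kept their direction and their side of the threshold, 46 newly passed, 23 no longer passed and 9 changed sign. None of the 9 belonged to a difference that passed. Not all of the 832 could change direction, since leaving out an array of a fraction outside a comparison left the difference itself unchanged. Between Sca1hi and Sca1lo cells none of the 8 genes passed under any alternative. Gp1bb in Gr1+ against Kit+Gr1- cells became -0.10 with the unscaled deposited values, -0.0015 without Kit+Gr1-Sca1hi replicate 3, -0.0012 without Gr1+ replicate 1, and -0.050 against Sca1lo alone, with -0.0015 to 0.23 on leaving out 1 array, and Pf4 became 0.36 against Sca1hi alone. Between Sca1hi and Sca1lo cells, Thbs1 became 0.15 with the mean over probes, 0.079 with array weights and 0.10 without Sca1hi replicate 2, with -0.42 to 0.10 on leaving out 1 array, and Ppbp became 0.047 with array weights. The cause was not tested.

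In Kit-Gr1- against Kit+Gr1- cells the 22 genes called became 13 with quantile normalization, 13 with the unscaled deposited values, 108 with the 12 sorted arrays, 142 without the 4 compressed arrays, 740 with array weights and 0 against Sca1lo alone (limma, 373 at an unadjusted p under 0.05), and ran from 0 to 111 with 1 array left out. In Gr1+ against Kit+Gr1- cells the 651 became 202 with array-median scaling, 1354, 2012 and 2157 with the sorted arrays, without the compressed arrays and with array weights, and 325 and 421 against Sca1hi and Sca1lo alone, with 115 to 1359 on leaving out 1 array. Between Kit-Gr1- and Gr1+ cells the 517 became 191, 1280, 1819 and 1933 under array-median scaling, the sorted arrays, no compressed arrays and array weights, with 151 to 1292 on leaving out 1 array. Between Sca1hi and Sca1lo cells array weights gave 9 in place of 0, and each array left out gave 0. Array weights were estimated gene by gene, a method that depends on the order of the genes, so these counts would move somewhat with another order. Among fits with 1 array left out, the highest counts came without unfractionated replicate 1. That fit leaves 1 array in its group, which adds nothing to the estimate of the spread, so it is close to the fit of the sorted arrays. The lowest counts came without Kit-Gr1- replicate 1 or 3 in the first comparison and without Gr1+ replicate 2 in the comparisons with Gr1+ cells. The subunit mean minus the secreted mean of -0.07 in Kit-Gr1- over Kit+Gr1- cells became 0.18 with array weights, 0.012 without Sca1hi replicate 2 and 0.091 without Kit-Gr1- replicate 1, from -0.20 to 0.091 in all with 1 array left out. With 1 array left out it ran from -3.03 to -2.77 in Gr1+ cells and from 2.68 to 2.97 between Kit-Gr1- and Gr1+ cells, against -2.61 and 2.54 with normexp and 3.01 with array weights in the second. Between Sca1hi and Sca1lo cells it became 0.090 without the compressed arrays and ran from -0.25 to 0.010 with 1 array left out.

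With the replicate block 27, 793, 670 and 0 genes were called in the 4 comparisons. Same-numbered arrays of Gr1+, Sca1hi and Sca1lo cells correlated, but pairing by number cannot be told apart from the shared compression of replicate 3. In the comparisons among these groups the block changed no call of the 8 genes. Arrays of Kit-Gr1- cells had r from -0.231 to 0.206 with same-numbered arrays of these groups. In the comparisons with Kit-Gr1- cells the block moved 1 call, that of Pf4 against Gr1+ cells (adjusted p = 0.0431). With slide as a block that adjusted p was 0.0293.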
